A study of Mus musculus with 64 samples.

Results

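The genes described here are 38 interferon-stimulated genes of mouse liver, a set chosen by symbol and matched to the deposited count table by gene name. All 38 were found among the 53008 gene names of the table, and all 38 were among the 17318 genes that passed the filter on low counts and were tested. By the interferon that classically drives them, 31 were taken as type I genes and 7 as gamma-induced genes. The liver RNA came from wild-type mice (WT, carrying the mouse Mgat2 gene) and from HuMgat2 mice, a humanized line that expresses human MOGAT2, an enzyme that makes diacylglycerol from monoacylglycerol. Both genotypes received chow or high-fat feed (HFD) over 16 weeks. This gave 4 groups of 4 libraries, namely WT on chow (libraries 5 to 8), WT on HFD (1 to 4), HuMgat2 on chow (13 to 16) and HuMgat2 on HFD (9 to 12). The promoter that drives the human gene, the age and sex of the mice and their feeding state at collection were not given in the sources used here. The labels do not say that the 4 libraries of a group came from separate animals, so p-values measure the spread between these libraries.

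Interferons are secreted proteins that alert cells to infection. Type I interferons signal through JAK1 and TYK2 to a factor complex with STAT2 and IRF9, which binds the interferon-stimulated response element (ISRE) in the promoters of antiviral genes. Interferon gamma, made mainly by T cells and natural killer cells, acts on promoters through gamma-activated sites (GAS), and it strongly induces the immunity-related GTPases and guanylate-binding proteins. The 2 sets overlap in part, since many of these genes answer to both kinds of interferon. In liver, hepatocytes, Kupffer cells and other macrophages can all express them. In bulk tissue, fewer cells of a type and less RNA per cell cannot be told apart.

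Part of the promoters carry the letters of these elements, and a few promoters are shown for the genes on which the results turn. RefSeq promoter windows on GRCm38.p6, from 250 bases before to 50 bases after the start of the gene, were matched by symbol for 27 of the 38 genes. An ISRE-like run was searched as GAAANNGAAA and a GAS-like run as TTCNNNGAA, each on both strands. The ISRE-like letters were in the windows of 12 of 21 type I genes (57.1%) and 5 of 6 gamma-induced genes (83.3%), against 3.99% of 27025 genes with a window. The GAS-like letters were in 4 of 21 type I genes (19%), 2 of 6 gamma-induced genes (33.3%) and 9.55% of all genes. A match describes the letters and is not a bound site. The sequences below are the 150 bases before the start of each gene in the direction of transcription, with ISRE-like letters in capitals. They are Isg15 (chr4:156200819-156200968, minus strand), Rsad2 (chr12:26456453-26456602, minus strand), Cmpk2 (chr12:26469065-26469214, plus strand), Bst2 (chr8:71537473-71537622, minus strand), Gbp2 (chr3:142620513-142620662, plus strand) and Igtp (chr11:58199406-58199555, plus strand).
Isg15: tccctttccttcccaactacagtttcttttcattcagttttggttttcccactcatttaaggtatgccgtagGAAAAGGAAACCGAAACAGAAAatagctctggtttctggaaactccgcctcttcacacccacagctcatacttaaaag
Rsad2: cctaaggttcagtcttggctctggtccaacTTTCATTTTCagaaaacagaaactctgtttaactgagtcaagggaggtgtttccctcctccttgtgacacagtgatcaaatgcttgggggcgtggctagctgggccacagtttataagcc
Cmpk2: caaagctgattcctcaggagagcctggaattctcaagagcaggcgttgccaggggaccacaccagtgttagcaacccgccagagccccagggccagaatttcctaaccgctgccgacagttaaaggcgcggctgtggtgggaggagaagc
Bst2: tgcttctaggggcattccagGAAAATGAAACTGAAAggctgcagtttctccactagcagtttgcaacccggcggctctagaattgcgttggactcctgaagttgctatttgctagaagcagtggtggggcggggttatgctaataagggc
Gbp2: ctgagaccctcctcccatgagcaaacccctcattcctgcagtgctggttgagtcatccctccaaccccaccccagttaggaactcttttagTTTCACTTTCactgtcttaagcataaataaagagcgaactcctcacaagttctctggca
Igtp: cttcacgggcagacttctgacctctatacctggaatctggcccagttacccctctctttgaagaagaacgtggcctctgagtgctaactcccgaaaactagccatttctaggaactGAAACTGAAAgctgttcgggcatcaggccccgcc
In Isg15 and Bst2 the capitals join overlapping matches, 3 in Isg15 and 2 in Bst2. Rsad2 and Gbp2 hold the element on the opposite strand. The Cmpk2 window holds neither motif. The Igtp and Bst2 windows also hold GAS-like letters, which in Bst2 overlap the capitals.

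Library depth ranged from 12.4 to 25.8 M counts. WT HFD library 4 was the shallowest, and albumin took 0.85% of its counts against 3.26% to 6.02% in the others. It also correlated less with the rest of its group (median Spearman 0.954) than the other 15 libraries did with theirs (0.978 to 0.99). It was the highest of the 16 libraries for 22 of the 31 type I genes and for 7 of the 7 gamma-induced genes. Results are therefore given with and without it. Mouse Mogat2 had at most 2 counts in any library except those of WT on HFD (2 to 12 counts), which is too few to check the labels. Human MOGAT2 is not in the annotation and was not measured here.

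**Figure D1:**
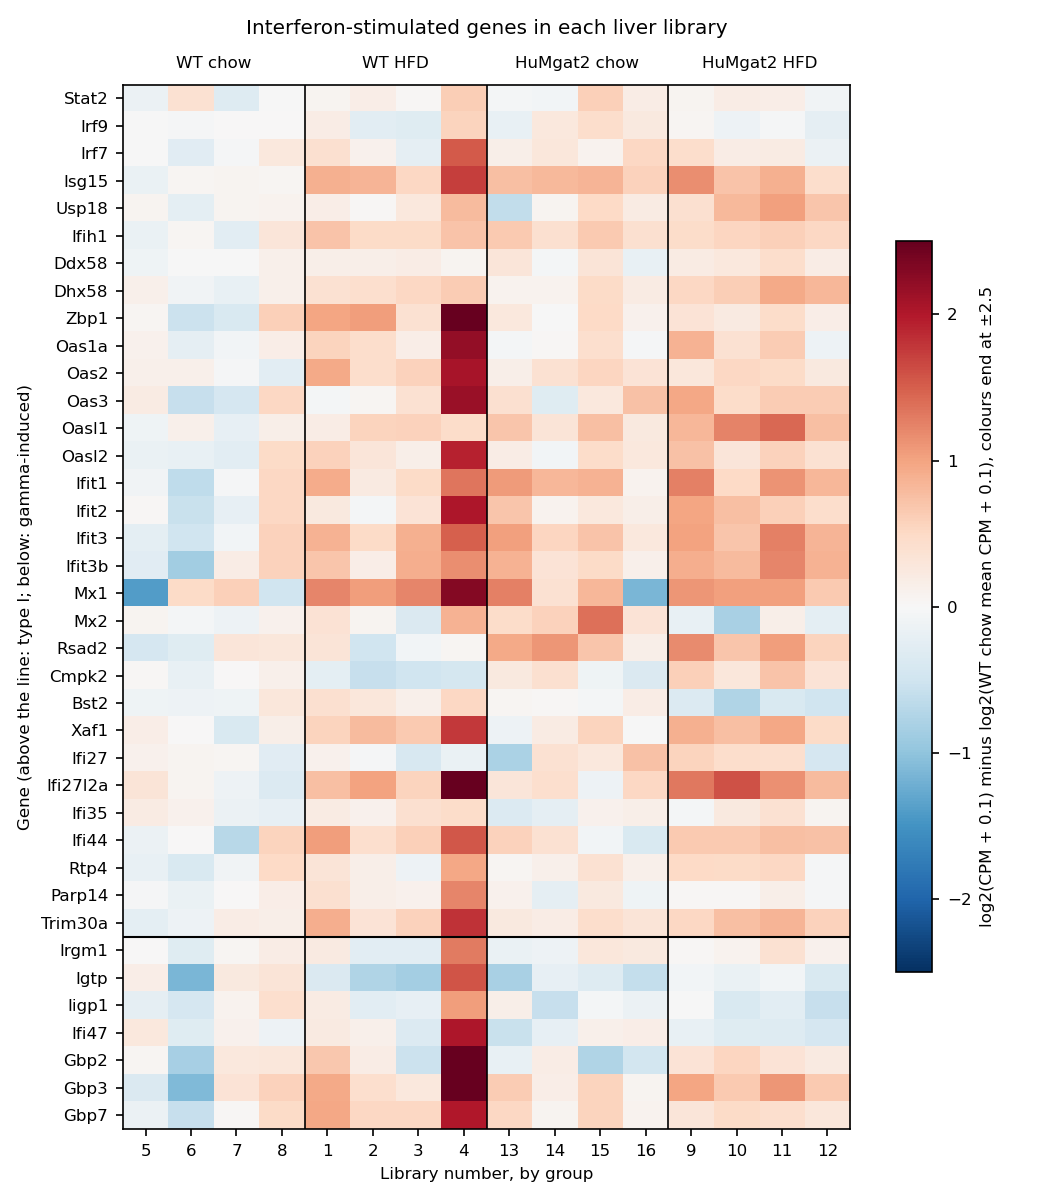
Heat map of the 38 genes (rows; the 31 type I genes above the line, the 7 gamma-induced genes below) in each of the 16 libraries (columns, by group), as log2(CPM + 0.1) minus log2 of the WT chow mean plus 0.1, with colours ending at ±2.5. Library 4 of WT on HFD is the darkest red column, and the type I rows of the other WT HFD libraries and of both HuMgat2 groups are mostly pale red.

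Levels are counts per M counts (CPM) scaled by TMM. Levels within a gene are given for every library, in the order of the library numbers above. A gene is said to have risen or fallen only where edgeR's quasi-likelihood test, adjusted over all 17318 genes, gave an adjusted p below 0.05. Per kilobase of exon, the mean level over all libraries ran from 0.219 CPM per kb in Oas3 to 53.7 in Iigp1, with Bst2 at 38.2 and Ifi27 at 20.4. On that scale Mx1 stood at 0.281, Isg15 at 3.11 and Stat2 at 8.82 CPM per kb.

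HFD was accompanied by higher levels of part of the set in WT liver. Of the 38 genes, 13 rose and 0 fell, where 8.37% of all tested genes rose and 6.74% fell. At an unadjusted p below 0.05 edgeR put 24 higher and 1 lower, and DESeq2 called 19 higher and 0 lower. When only the 8 WT libraries were fitted, 2 of the 13 were called, Isg15 and Ifih1. The 13 were 11 of the 31 type I genes (Isg15, Ifih1, Dhx58, Zbp1, Oas2, Ifit3, Mx1, Xaf1, Ifi27l2a, Ifi44 and Trim30a) and 2 of the 7 gamma-induced genes (Gbp3 and Gbp7). The median log2 change was 0.60 over the type I genes and 0.81 over the gamma-induced genes, beside 0.03 over all tested genes. Without library 4, 10 rose and 0 fell, all of them among the 13, where Mx1, Ifi44 and Gbp3 were not called. In that fit 7.69% of all tested genes rose and 7.01% fell. The median was then 0.36 over the type I genes and 0.02 over the gamma-induced genes, of which 3 of 7 had negative values. Whether the 2 sets differed was not tested.

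In HuMgat2 liver Usp18, Dhx58 and Oasl1 rose with HFD and Mx2 and Bst2 fell, which is 3 and 2 of 38, where 7.56% of all tested genes rose and 6.4% fell. The median log2 change was 0.23 over the type I genes and 0.08 over the gamma-induced genes, beside -0.01 over all genes. Without library 4, which is in neither group but enters the shared estimate of the spread, Xaf1 and Ifi27l2a were called as well, for 5 rises in all, where 10.7% of all tested genes rose and 8.58% fell. With only the 8 HuMgat2 libraries fitted, 6 rose. The number of rises was 0 without HuMgat2 HFD library 11 and 1 without HuMgat2 HFD library 10 or HuMgat2 chow library 16, and the number of falls was 1 without HuMgat2 HFD library 10 or 12 or HuMgat2 chow library 15.

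Between genotypes on chow, Ifih1 was the 1 gene called higher in HuMgat2 and 0 were lower (7 and 0 at an unadjusted p below 0.05, and 1 and 0 by DESeq2), where 0.266% of all tested genes were higher and 0.243% lower. In 30 of the 31 type I genes the log2 difference was positive, with a median of 0.25 beside 0.004 over all genes, and in 4 of the 7 gamma-induced genes it was negative, with a median of -0.08. Between genotypes on HFD, Oasl1, Rsad2 and Cmpk2 were higher and Zbp1 and Bst2 lower in HuMgat2, 3 and 2 of 38, where 7.21% of all tested genes were higher and 7.56% lower. The gamma-induced genes were negative in 7 of 7, with a median of -0.77 and 0 called by edgeR (4 lower at an unadjusted p below 0.05). Over all 38 genes DESeq2 called 4 lower, and with only the HFD libraries fitted 1 was. Without library 4 their median was 0.19 with 3 of 7 negative, and that of the type I genes went from -0.16 to 0.12. These comparisons share groups, so that a high WT HFD library raises the WT diet change and lowers the genotype difference on HFD by construction.

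The diet change differed between the genotypes for 3 genes by the interaction test. For Cmpk2 the interaction was positive, with a negative diet value in WT and a positive one in HuMgat2. It was negative for Ifih1, which rose in WT and had a diet value near 0 in HuMgat2, and for Bst2, with a positive value in WT and a fall in HuMgat2, where 2.61% of all tested genes had a positive and 2.26% a negative interaction. Over the type I genes the median interaction was -0.50, and over the gamma-induced genes -1.04. Without library 4 these medians were -0.14 and -0.08, and the same 3 genes were called.

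**Figure D2:**
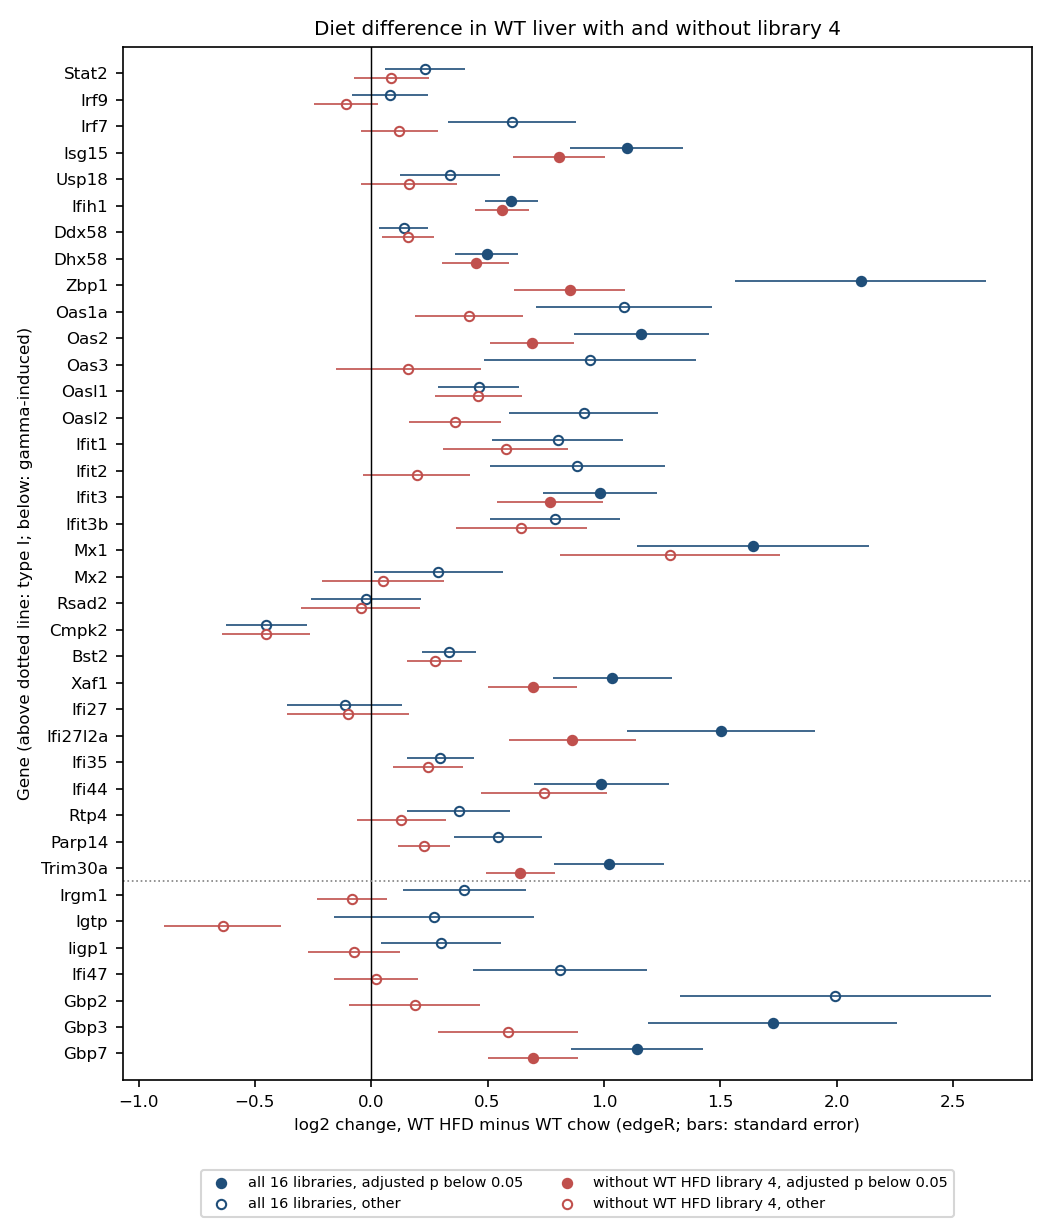
Log2 change from chow to HFD in WT liver for each gene (rows) from edgeR with its standard error (bars), with all 16 libraries in blue and without WT HFD library 4 in red; filled points have an adjusted p below 0.05. Red points lie close to blue for Ifih1, Dhx58 and Cmpk2, and far to the left of blue for Zbp1, Gbp2 and Gbp3.

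None of the 3 transcription factors among the signalling genes was called. Stat2 stood at 43.2, 62.2, 38.0 and 47.5 CPM in WT on chow and 49.9, 53.5, 48.5 and 72.7 in WT on HFD, with 46.0, 45.5, 72.6 and 54.0 in HuMgat2 on chow and 49.9, 54.0, 53.6 and 44.8 in that genotype on HFD. Irf9 was at 20.3, 19.9, 20.6 and 20.5 CPM in WT on chow and 23.2, 17.0, 16.5 and 29.9 in WT on HFD, with 17.8, 24.4, 27.7 and 24.0 in HuMgat2 on chow and 20.9, 18.6, 19.9 and 17.4 in that genotype on HFD. STAT2 and IRF9 act together in the type I response, and for both genes the 4 groups overlapped. Irf7 measured 14.2, 11.8, 14.0 and 17.1 CPM in WT on chow and 18.9, 15.4, 12.1 and 41.2 in WT on HFD, with 15.8, 17.4, 15.1 and 20.5 in HuMgat2 on chow and 19.3, 16.2, 16.5 and 12.9 in that genotype on HFD. Irf7, the factor that amplifies type I interferon production, reached its highest level in library 4 and overlapped between diets in the other WT libraries. Its WT change was log2 0.60 ± 0.28 SE, adjusted p = 0.151, and without library 4 it was log2 0.12, adjusted p = 0.697.

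Isg15, a ubiquitin-like protein that is attached to other proteins, was the signalling gene with a rise in WT. Isg15 had levels of 1.13, 1.34, 1.36 and 1.33 CPM in WT on chow and 2.49, 2.42, 1.90 and 4.53 in WT on HFD, with 2.26, 2.35, 2.42 and 1.97 in HuMgat2 on chow and 3.01, 2.17, 2.47 and 1.79 in that genotype on HFD. The 4 WT HFD libraries lay above the 4 WT chow libraries, a 2.14-fold rise (log2 1.10 ± 0.24 SE, adjusted p = 0.00682). Without library 4 the change was log2 0.81, adjusted p = 0.0109. In HuMgat2 mice the level on chow already lay above all WT chow libraries (log2 0.80 ± 0.24 SE, adjusted p = 0.205), a difference that was not called with all libraries and was called without library 4 (log2 0.80, adjusted p = 0.0487). The diet change in HuMgat2 was log2 0.07 ± 0.23 SE, adjusted p = 0.879.

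Usp18 encodes the protease that removes ISG15 and also dampens the type I receptor. Usp18 lay at 4.21, 3.33, 4.17 and 4.25 CPM in WT on chow and 4.49, 4.09, 4.82 and 6.99 in WT on HFD, with 2.58, 4.21, 5.64 and 4.59 in HuMgat2 on chow and 5.29, 7.04, 8.21 and 6.50 in that genotype on HFD. It rose 1.58-fold with HFD in HuMgat2 (log2 0.66 ± 0.21 SE, adjusted p = 0.0477), with overlap between the groups through chow library 15. This call was lost under 12 of 22 alternatives, 11 of them with 1 library left out. In WT the change was log2 0.34 ± 0.22 SE, adjusted p = 0.319.

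Of the 4 sensors of foreign RNA and DNA, 3 rose in WT. Ifih1 encodes MDA5, which detects long double-stranded RNA in the cytosol. Ifih1 stood at 27.4, 31.8, 25.4 and 37.7 CPM in WT on chow and 50.1, 42.6, 42.7 and 50.3 in WT on HFD, with 48.5, 40.6, 48.0 and 40.2 in HuMgat2 on chow and 42.0, 44.3, 46.1 and 43.6 in that genotype on HFD. The WT chow libraries were the low ones, below all 12 others. Ifih1 rose 1.52-fold with HFD in WT (log2 0.60 ± 0.11 SE, adjusted p = 0.00242) and did so at nearly the same size without library 4 (log2 0.56, adjusted p = 0.00414). It was 1.45-fold higher in HuMgat2 livers than in WT on chow (log2 0.54 ± 0.11 SE, adjusted p = 0.0449), and the diet change in HuMgat2 was log2 -0.01 ± 0.11 SE, adjusted p = 0.972. The interaction was log2 -0.61 ± 0.16 SE, adjusted p = 0.0366. The chow genotype call was lost under 13 of 22 alternatives and the interaction call under 11 of 21, with log2 values from 0.46 to 0.65 and from -0.725 to -0.529.

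Dhx58 encodes LGP2, a helicase that works with MDA5. Dhx58 was at 5.43, 4.67, 4.35 and 5.44 CPM in WT on chow and 6.50, 6.68, 7.17 and 7.79 in WT on HFD, with 5.29, 5.28, 6.98 and 5.76 in HuMgat2 on chow and 7.20, 7.70, 9.74 and 8.87 in that genotype on HFD. In each genotype the HFD libraries lay above the chow libraries. Dhx58 rose in WT (log2 0.50 ± 0.14 SE, adjusted p = 0.021) and in HuMgat2 (log2 0.52 ± 0.13 SE, adjusted p = 0.0141), and the interaction was log2 0.03 ± 0.19 SE, adjusted p = 0.959. The call in HuMgat2 was lost without HuMgat2 HFD library 11 (log2 0.446), and the call in WT without WT chow library 6 (0.448) or 7 (0.435) and with no filter on low counts (0.469). Ddx58, which encodes the related sensor RIG-I, ranged from 26.0 to 40.1 CPM over the 16 libraries and was called in none of the 5 comparisons.

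Zbp1 binds Z-form nucleic acid and can trigger cell death. Zbp1 measured 2.88, 1.90, 2.13 and 4.25 CPM in WT on chow and 5.62, 5.84, 3.65 and 34.1 in WT on HFD, with 3.36, 2.77, 3.97 and 3.00 in HuMgat2 on chow and 3.58, 3.27, 3.87 and 3.14 in that genotype on HFD. Library 4 stood far above the next highest, WT HFD library 2. Zbp1 rose 4.30-fold in WT (log2 2.10 ± 0.54 SE, adjusted p = 0.0156), and without library 4 the rise was smaller and still called (log2 0.85, adjusted p = 0.0224). On HFD it was lower in HuMgat2 livers than in WT (log2 -1.79 ± 0.53 SE, adjusted p = 0.0316), and that call was lost without library 4 (log2 -0.53, adjusted p = 0.14). It was also lost without any 1 of the HuMgat2 HFD libraries, where the log2 value was -1.839 to -1.737, and with voom quality weights (-0.47).

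**Figure D3:**
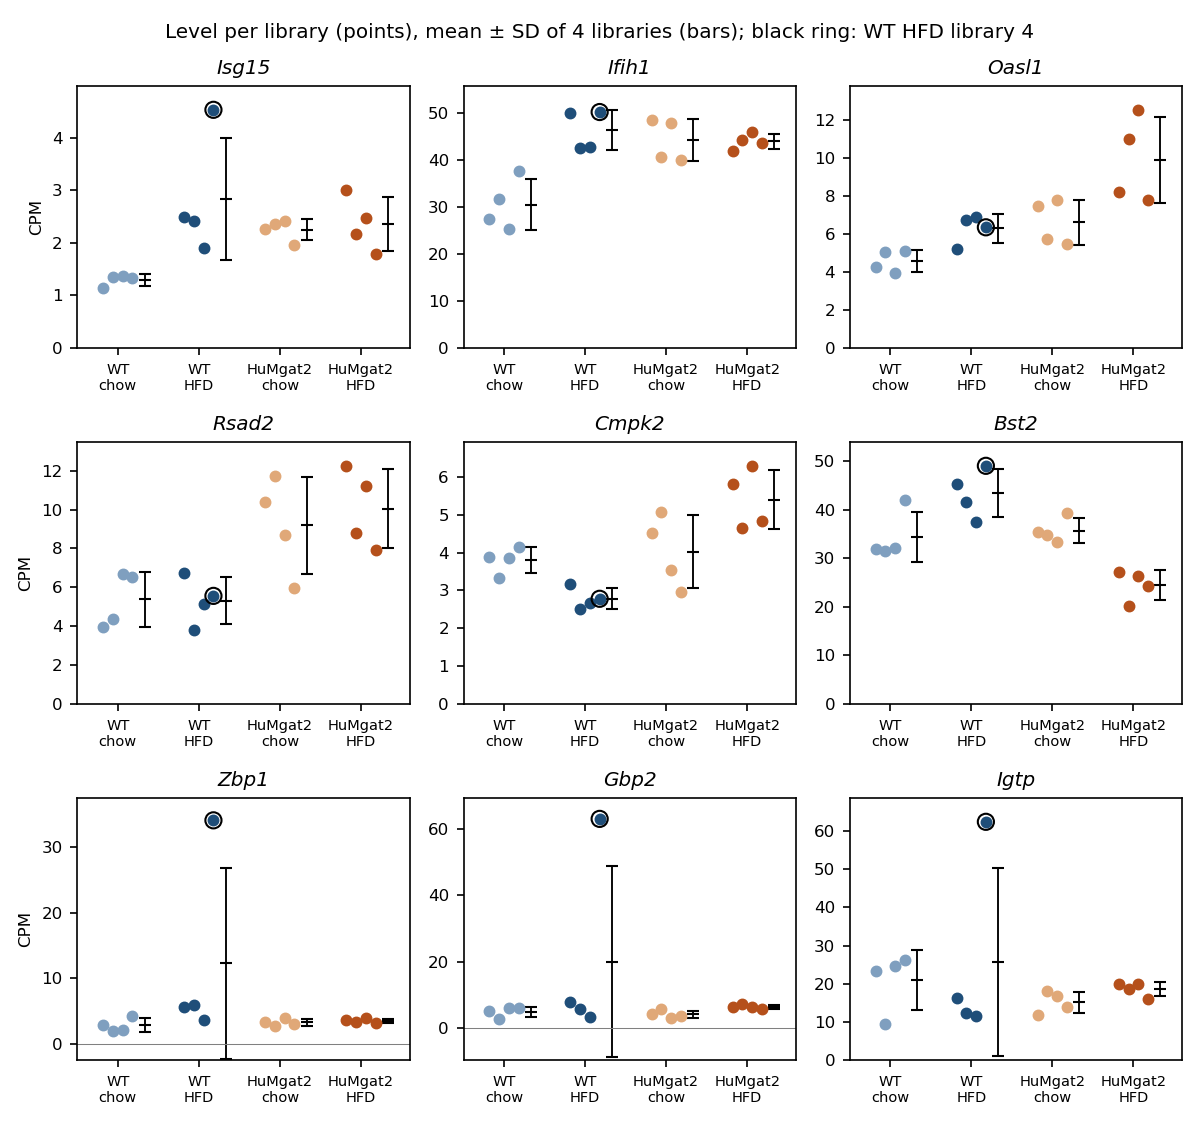
CPM per library (points) in the 4 groups for 9 genes, with the mean ± SD of 4 libraries (bars) and a black ring around WT HFD library 4. Isg15 and Ifih1 are lowest in WT on chow, Rsad2 and Cmpk2 are higher in HuMgat2 than in WT on HFD, Bst2 is lowest in HuMgat2 on HFD, and Zbp1, Gbp2 and Igtp are far higher in library 4 than in the other 15.

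The OAS genes encode enzymes that make oligoadenylate, the activator of RNase L, and related proteins without that activity. Oas2 had levels of 1.84, 1.85, 1.63 and 1.38 CPM in WT on chow and 3.32, 2.29, 2.55 and 7.31 in WT on HFD, with 1.87, 2.20, 2.47 and 2.15 in HuMgat2 on chow and 2.08, 2.43, 2.38 and 2.02 in that genotype on HFD. Oas2 rose 2.24-fold with HFD in WT (log2 1.16 ± 0.29 SE, adjusted p = 0.0137), with no overlap between the groups, and log2 0.69, adjusted p = 0.0162 without library 4. Oasl1 lay at 4.25, 5.04, 3.94 and 5.09 CPM in WT on chow and 5.23, 6.76, 6.89 and 6.36 in WT on HFD, with 7.49, 5.73, 7.79 and 5.48 in HuMgat2 on chow and 8.22, 11.0, 12.5 and 7.80 in that genotype on HFD. Oasl1, which represses the translation of IRF7, followed both diet and genotype, with WT on chow lowest and HuMgat2 on HFD highest. It rose with HFD in HuMgat2 (log2 0.58 ± 0.17 SE, adjusted p = 0.0287) and was 1.57-fold higher in HuMgat2 livers than in WT on HFD (log2 0.65 ± 0.17 SE, adjusted p = 0.018). The WT diet change (log2 0.46 ± 0.17 SE, adjusted p = 0.0854) and the chow genotype difference (log2 0.53 ± 0.17 SE, adjusted p = 0.254) were not called, although the groups did not overlap in either. Both Oasl1 calls were lost without HuMgat2 HFD library 10 (log2 0.53 and 0.595) or library 11 (0.45 and 0.52), and the diet call also without HuMgat2 chow library 14 (0.52) or 16 (0.505). Oas1a, Oas3 and Oasl2 were called in none of the 5 comparisons, with levels of 1.30 to 7.39 CPM, 0.648 to 4.85 CPM and 2.90 to 13.6 CPM, and the highest value of each was in library 4.

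The IFIT genes encode related antiviral proteins, of which that of Ifit1 binds foreign RNA with an unmodified cap. Ifit3 stood at 3.87, 3.24, 4.35 and 6.87 CPM in WT on chow and 8.40, 6.47, 8.55 and 13.1 in WT on HFD, with 9.49, 6.68, 7.57 and 5.52 in HuMgat2 on chow and 9.28, 7.48, 11.1 and 8.34 in that genotype on HFD. Ifit3 rose 1.97-fold with HFD in WT (log2 0.98 ± 0.24 SE, adjusted p = 0.0136) and still did without library 4 (log2 0.77, adjusted p = 0.031). WT chow library 8 overlapped the WT HFD group. Ifit1 was at 3.97, 2.68, 4.17 and 6.13 CPM in WT on chow and 8.11, 4.96, 5.92 and 10.9 in WT on HFD, with 8.97, 7.63, 7.84 and 4.49 in HuMgat2 on chow and 10.3, 6.02, 9.40 and 7.57 in that genotype on HFD. Ifit1 changed by log2 0.80 ± 0.28 SE, adjusted p = 0.0655 in WT, was not called, and overlapped between diets through the same chow library. Ifit2 (2.22 to 13.8 CPM) and Ifit3b (1.20 to 5.44 CPM) were called in no comparison. Ifit3b is a near copy of Ifit3, at 0.371 to 0.594 of its counts per library, and how read pairs were divided between them is uncertain.

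The Mx genes encode dynamin-like GTPases that trap viral components. Mx1 measured 0.142, 0.787, 0.861 and 0.346 CPM in WT on chow and 1.37, 1.21, 1.38 and 3.02 in WT on HFD, with 1.42, 0.721, 1.02 and 0.187 in HuMgat2 on chow and 1.26, 1.20, 1.19 and 0.896 in that genotype on HFD. Mx1 was near the lower limit of measurement, with a minimum of 3 counts in a library. It rose 3.12-fold in WT (log2 1.64 ± 0.50 SE, adjusted p = 0.0349) with no overlap between the groups, and was not called without library 4 (log2 1.28, adjusted p = 0.0807), WT chow library 5 (1.33) or WT chow library 8 (1.48). Mx2 had levels of 3.21, 2.92, 2.77 and 3.26 CPM in WT on chow and 3.96, 3.17, 2.35 and 5.64 in WT on HFD, with 4.20, 4.59, 8.06 and 3.89 in HuMgat2 on chow and 2.65, 1.68, 3.36 and 2.55 in that genotype on HFD. Mx2 moved in the other direction in HuMgat2 liver, where it fell 2.02-fold with HFD (log2 -1.01 ± 0.27 SE, adjusted p = 0.0197) with no overlap. HuMgat2 chow library 15 was the highest of all, and without it the value was -0.72 and the call was lost, as it was without HuMgat2 HFD library 10 (-0.86) or 12 (-1.01).

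Rsad2 and Cmpk2 are neighbours on chromosome 12 (GRCm39, 26492745 to 26506451 and 26519203 to 26529836) that are transcribed away from each other and share no exon bases. Rsad2 encodes viperin, which makes a chain-terminating nucleotide from CTP, and Cmpk2 encodes a mitochondrial kinase of UMP and CMP. Rsad2 lay at 3.97, 4.35, 6.67 and 6.53 CPM in WT on chow and 6.74, 3.80, 5.14 and 5.56 in WT on HFD, with 10.4, 11.7, 8.70 and 5.95 in HuMgat2 on chow and 12.2, 8.81, 11.2 and 7.93 in that genotype on HFD. On HFD the HuMgat2 libraries lay above the WT libraries, 1.90-fold in the fit (log2 0.93 ± 0.23 SE, adjusted p = 0.0145). On chow the genotype difference was log2 0.77 ± 0.23 SE, adjusted p = 0.195 with overlap through HuMgat2 library 16, and the diet changes were log2 -0.02 ± 0.24 SE, adjusted p = 0.966 in WT and log2 0.13 ± 0.23 SE, adjusted p = 0.76 in HuMgat2.

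Cmpk2 stood at 3.87, 3.33, 3.85 and 4.15 CPM in WT on chow and 3.17, 2.50, 2.67 and 2.78 in WT on HFD, with 4.52, 5.09, 3.54 and 2.95 in HuMgat2 on chow and 5.82, 4.65, 6.29 and 4.84 in that genotype on HFD. On HFD the WT libraries were the low ones and the HuMgat2 libraries the high ones. Cmpk2 was 1.94-fold higher in HuMgat2 (log2 0.96 ± 0.17 SE, adjusted p = 0.00164). Unlike most of the set its WT diet value was negative, with no overlap between the groups but no call (log2 -0.45 ± 0.17 SE, adjusted p = 0.0934), and its HuMgat2 diet value was positive (log2 0.42 ± 0.17 SE, adjusted p = 0.11). The interaction was log2 0.87 ± 0.24 SE, adjusted p = 0.0486 and was lost under 13 of 21 alternatives, with log2 values from 0.75 to 1.02. The genotype calls of Rsad2 and Cmpk2 on HFD were kept under all 22 alternatives.

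Bst2 encodes tetherin, which holds budding virus at the cell surface. Bst2 was at 31.8, 31.5, 32.0 and 42.0 CPM in WT on chow and 45.2, 41.6, 37.5 and 49.0 in WT on HFD, with 35.3, 34.9, 33.3 and 39.3 in HuMgat2 on chow and 27.1, 20.3, 26.3 and 24.2 in that genotype on HFD. The HuMgat2 HFD libraries lay below all 12 others. Bst2 fell 1.46-fold with HFD in HuMgat2 (log2 -0.54 ± 0.12 SE, adjusted p = 0.00513) and was 1.77-fold lower in HuMgat2 on HFD than in WT (log2 -0.82 ± 0.12 SE, adjusted p = 0.000248). In WT the diet change was log2 0.34 ± 0.12 SE, adjusted p = 0.0616, and the interaction was log2 -0.88 ± 0.17 SE, adjusted p = 0.00514. All 3 calls were kept under every alternative run, the fit without library 4 included.

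Of the other effectors, 4 rose in WT. Xaf1 measured 2.55, 2.27, 1.72 and 2.52 CPM in WT on chow and 3.37, 4.01, 3.61 and 7.94 in WT on HFD, with 2.07, 2.62, 3.38 and 2.25 in HuMgat2 on chow and 4.27, 3.90, 4.55 and 3.18 in that genotype on HFD. Ifi27l2a had levels of 0.851, 0.694, 0.589 and 0.494 CPM in WT on chow and 1.17, 1.42, 1.01 and 4.29 in WT on HFD, with 0.839, 0.911, 0.591 and 0.983 in HuMgat2 on chow and 1.79, 2.17, 1.57 and 1.21 in that genotype on HFD. Ifi44 lay at 1.56, 1.76, 1.04 and 2.62 CPM in WT on chow and 3.71, 2.38, 2.67 and 5.32 in WT on HFD, with 2.65, 2.31, 1.67 and 1.31 in HuMgat2 on chow and 2.81, 2.79, 3.02 and 2.96 in that genotype on HFD. Xaf1 promotes cell death, Ifi27l2a is a small membrane protein and Ifi44 is an antiviral protein of the cytosol. The WT changes were log2 1.03 ± 0.26 SE, adjusted p = 0.0129 for Xaf1, log2 1.50 ± 0.41 SE, adjusted p = 0.0202 for Ifi27l2a and log2 0.99 ± 0.29 SE, adjusted p = 0.0301 for Ifi44. Without library 4 they were log2 0.69, adjusted p = 0.022, log2 0.86, adjusted p = 0.0421 and log2 0.74, adjusted p = 0.0756, so that Ifi44 was no longer called. Ifi44 was also not called without WT HFD library 1 or WT chow library 5, 6 or 7 (log2 0.80 to 0.97), nor Ifi27l2a without WT chow library 7 (1.45) or 8 (1.39) or with voom quality weights (0.777). The groups did not overlap for Xaf1 and Ifi27l2a, and for Ifi44 chow library 8 overlapped them.

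Trim30a stood at 5.10, 5.60, 6.94 and 6.77 CPM in WT on chow and 11.6, 7.80, 9.20 and 21.7 in WT on HFD, with 7.23, 6.98, 8.32 and 7.68 in HuMgat2 on chow and 8.83, 10.3, 11.1 and 9.10 in that genotype on HFD. Trim30a, a ubiquitin ligase that restrains inflammatory signalling, rose 2.03-fold in WT (log2 1.02 ± 0.24 SE, adjusted p = 0.00888) with no overlap, and log2 0.64, adjusted p = 0.0078 without library 4. In HuMgat2 its diet change was log2 0.38 ± 0.23 SE, adjusted p = 0.314, also without overlap and not called. Ifi27, Ifi35, Rtp4 and Parp14 were called in no comparison, at 11.2 to 32.1 CPM, 6.26 to 11.0 CPM, 5.64 to 14.5 CPM and 38.8 to 106 CPM. Rtp4 shares 15.2% of its exon bases with Gm45338 and Ifi35 shares 16.8% with Gm11626, and the counting named no strand.

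The gamma-induced genes were set apart by library 4. Gbp2 was at 5.05, 2.68, 5.85 and 5.93 CPM in WT on chow and 7.82, 5.59, 3.32 and 63.2 in WT on HFD, with 4.26, 5.54, 2.85 and 3.51 in HuMgat2 on chow and 6.19, 7.13, 6.25 and 5.74 in that genotype on HFD. Gbp3 measured 1.98, 1.16, 3.31 and 3.90 CPM in WT on chow and 5.08, 3.50, 3.12 and 23.7 in WT on HFD, with 4.07, 2.92, 3.87 and 2.71 in HuMgat2 on chow and 5.21, 4.12, 5.70 and 4.12 in that genotype on HFD. Gbp7 had levels of 11.4, 8.42, 12.7 and 17.6 CPM in WT on chow and 24.7, 18.1, 18.0 and 50.8 in WT on HFD, with 17.9, 13.2, 18.5 and 13.2 in HuMgat2 on chow and 15.5, 17.6, 16.7 and 15.2 in that genotype on HFD. These guanylate-binding proteins coat and break the vacuoles of intracellular microbes. Library 4 was the highest for each, and for Gbp2 and Gbp3 other WT HFD libraries overlapped WT chow. Gbp3 rose (log2 1.73 ± 0.54 SE, adjusted p = 0.0392) and lost the call without library 4 (log2 0.59, adjusted p = 0.215) and without WT chow library 5, 6 or 7 (log2 1.45 to 1.87), and with voom quality weights (log2 0.733). Gbp7 rose with no overlap between groups (log2 1.14 ± 0.28 SE, adjusted p = 0.0132) and kept the call (log2 0.69, adjusted p = 0.0224). Gbp2 was log2 2.00 ± 0.67 SE, adjusted p = 0.0538 and log2 0.19, adjusted p = 0.726 without library 4.

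Igtp lay at 23.3, 9.39, 24.7 and 26.3 CPM in WT on chow and 16.4, 12.4, 11.6 and 62.4 in WT on HFD, with 11.9, 18.0, 16.7 and 13.9 in HuMgat2 on chow and 19.9, 18.6, 19.9 and 16.0 in that genotype on HFD. Irgm1 stood at 36.6, 29.3, 37.2 and 41.4 CPM in WT on chow and 42.4, 30.0, 30.0 and 89.6 in WT on HFD, with 32.3, 33.0, 44.1 and 43.1 in HuMgat2 on chow and 36.6, 38.1, 47.3 and 38.9 in that genotype on HFD. Iigp1 was at 270.4, 237, 336 and 419.8 CPM in WT on chow and 364, 262, 274 and 655 in WT on HFD, with 350.2, 210.5, 307 and 284 in HuMgat2 on chow and 313, 242, 264 and 212 in that genotype on HFD. These are immunity-related GTPases, of which Irgm1 and Igtp regulate the others on the membranes of the cell and Iigp1 attacks the parasite vacuole. None was called in the 5 comparisons. In WT the diet values were log2 0.27 ± 0.43 SE, adjusted p = 0.731 for Igtp, log2 0.40 ± 0.27 SE, adjusted p = 0.338 for Irgm1 and log2 0.30 ± 0.26 SE, adjusted p = 0.485 for Iigp1. Without library 4 all 3 were negative, at log2 -0.64, adjusted p = 0.102, log2 -0.08, adjusted p = 0.779 and log2 -0.07, adjusted p = 0.854. Ifi47, the other gene of this family here, ranged from 6.07 to 36.9 CPM, with its highest value in library 4. Igtp shares 8.01% of its exon bases with Irgm2 and Ifi47 shares 11.5% with other genes.

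**Figure D4:**
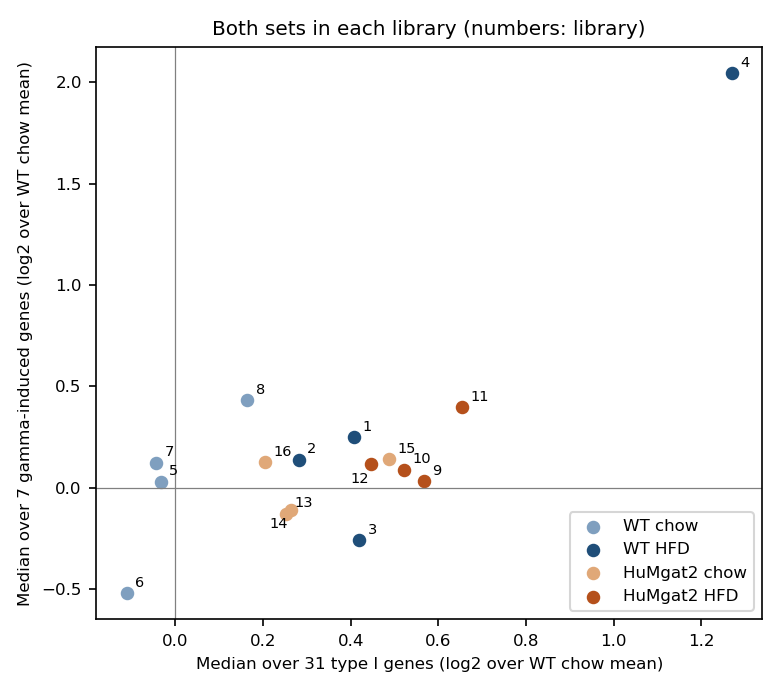
Median over the 31 type I genes (x) and over the 7 gamma-induced genes (y) of the log2 level relative to the WT chow mean, 1 point per library with its number. Library 4 lies at 1.27 and 2.05, and the other 15 lie between -0.11 and 0.65 on the x axis and between -0.52 and 0.43 on the y axis.

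Each library was also described by the median of its log2 levels relative to the WT chow mean. Over the type I genes the 4 WT chow libraries lay between -0.11 and 0.16, the HuMgat2 chow libraries between 0.205 and 0.49, the HuMgat2 HFD libraries between 0.45 and 0.65, and the WT HFD libraries at 0.41, 0.28, 0.42 and 1.27. By this measure WT chow was the lowest group for the type I genes, with no overlap with any other group. These levels are relative to the mean of the WT chow libraries themselves, which centres that group near 0. The gap was small, from 0.164 to 0.205. Summed CPM of the 31 genes overlapped, at 300.3 to 358.6 in WT on chow against 356.9 in WT HFD library 3. It was 354.1 in HuMgat2 chow library 14 and 345.8 in HuMgat2 HFD library 12. Over the gamma-induced genes the same medians were -0.52 to 0.43 (WT, chow), -0.13 to 0.14 (HuMgat2, chow), 0.03 to 0.40 (HuMgat2, HFD) and, for WT libraries 1 to 4 on HFD, 0.25, 0.14, -0.26 and 2.05. Apart from library 4 the groups overlapped. WT chow library 6 was the lowest of its group for 7 of 7 gamma-induced genes, and WT chow library 8 was the highest of its group for 20 of 31 type I and 6 of 7 gamma-induced genes.

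The rest of the pathway was read from a list of 84 other genes, of which 83 were in the table and 72 were tested. In WT 22 rose and 0 fell with HFD, where 8.37% of all tested genes rose, and without library 4 the counts were 13 and 0, where 7.69% of all tested genes rose. Of the 9 interferon genes listed, Ifnk passed the filter and was not called, and the other 8 were too low to be tested at this depth. Ifng was at 0.318 CPM in library 4 and at or under 0.0907 CPM in the other 15 libraries. This rests on 8 counts over all 16 libraries and 4 in library 4, too few to compare. Among 5 tested receptor genes Ifngr2, a chain of the gamma receptor, rose in WT (log2 0.54 ± 0.15 SE, adjusted p = 0.0226) and in HuMgat2 (log2 0.69 ± 0.15 SE, adjusted p = 0.0047). Among the kinases and factors, Irf8 rose in WT (log2 1.39 ± 0.43 SE, adjusted p = 0.0409) and was not called without library 4 (log2 0.44, adjusted p = 0.173). Of 10 sensing genes Tlr3 (log2 0.74 ± 0.14 SE, adjusted p = 0.00295) and Tlr7 (log2 1.54 ± 0.41 SE, adjusted p = 0.0184), receptors for RNA in endosomes, rose in WT.

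Of 5 tested inhibitors, Socs3, which blocks JAK signalling, rose in WT (log2 3.21 ± 0.75 SE, adjusted p = 0.00956, and log2 1.24, adjusted p = 0.0149 without library 4), and Samhd1, which breaks down nucleotides, rose with library 4 (log2 1.06 ± 0.33 SE, adjusted p = 0.0372) and was not called without it (log2 0.35, adjusted p = 0.0537). Socs3 also had a negative interaction (log2 -4.69 ± 1.04 SE, adjusted p = 0.0157), which was log2 -2.72, adjusted p = 0.00116 without library 4. In HuMgat2 it fell with HFD only in the fit without library 4 (log2 -1.48, adjusted p = 0.00215). Of 29 other type I genes, 13 rose in WT, among them Ly6e (log2 1.32 ± 0.28 SE, adjusted p = 0.00487), Parp12 (log2 0.53 ± 0.11 SE, adjusted p = 0.00604), Dtx3l (log2 0.53 ± 0.12 SE, adjusted p = 0.00821) and Samd9l (log2 0.84 ± 0.20 SE, adjusted p = 0.00905), and 9 rose without library 4. Of 13 tested gamma-induced genes of that list, Gbp8 and Ciita rose in WT with library 4 and 0 without it.

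In HuMgat2 5 genes of that list rose with HFD (Ifngr2, Dtx3l, Lgals3bp, Samd9l and Tor3a) and 3 fell (Irf3, Irf5 and Helz2), where 7.56% of all tested genes rose and 6.4% fell. Without library 4, 10 rose and 5 fell, where 10.7% and 8.58% of all tested genes did. Samd9l, a restriction factor, had the largest of these rises (log2 1.24 ± 0.19 SE, adjusted p = 0.000455), and Irf5, a factor of inflammatory cytokine genes, fell (log2 -1.15 ± 0.25 SE, adjusted p = 0.00591). Between genotypes on chow 0 of 72 were called in either direction by edgeR (4 higher and 1 lower at an unadjusted p below 0.05). Without library 4, 1 was called higher in HuMgat2 on chow, Socs3 (log2 1.56, adjusted p = 0.0146), where 0.635% of all tested genes were higher. On HFD, Lgals3bp and Samd9l were higher in HuMgat2 and 14 genes were lower, 8 of them gamma-induced (Tgtp1, Tgtp2, Gbp4, Gbp5, Gbp8, Cxcl9, Ciita and Nlrc5), where 7.21% of all tested genes were higher and 7.56% lower. Without library 4, 5 of the 72 were higher and 7 lower, where 7.39% of all tested genes were higher and 6.79% lower. Of the 8 gamma-induced genes, 4 were called lower (Gbp4, Gbp8, Ciita and Nlrc5). Gbp8 was log2 -2.04 ± 0.45 SE, adjusted p = 0.00679 with all libraries and log2 -1.07, adjusted p = 0.00202 without library 4. Nlrc5, which drives class I antigen presentation genes, was log2 -1.09 ± 0.25 SE, adjusted p = 0.00878 and log2 -0.70, adjusted p = 0.0118.

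Markers of other liver cells moved with part of these results. All 7 hepatocyte markers were tested, and 0 of 7 were called with diet in WT by edgeR (2 lower at an unadjusted p below 0.05). Their summed level was 69000 to 84330 CPM in WT on chow and 36630 to 61520 in WT on HFD, 36630 being library 4. Outside library 4, Alb was the largest part of that sum. In library 4 Alb stood at 0.228 of the mean of the other WT HFD libraries. The same ratio was 0.540 for Ttr, 0.865 for Apoa1, 0.884 for Serpina1c, 0.966 for Cyp2e1, 1.68 for Tat and 4.04 for Fgb. The low sum of library 4 therefore does not stand for all 7 markers. In HuMgat2 the hepatocyte markers summed to 61500 to 83990 CPM on chow and 51980 to 67560 on HFD, and Serpina1c and Tat fell with HFD. Between genotypes on HFD, 5 of the 7 hepatocyte markers had negative and 2 positive values, and Apoa1 and Tat were called lower in HuMgat2. Alb and Ttr had higher means in HuMgat2 than in WT on HFD (40900 against 29700 CPM and 2939 against 2118 CPM). The 7 macrophage markers summed to 112.8 to 187.7 CPM in WT on chow and to 323, 217, 190 and 912 CPM in WT libraries 1 to 4 on HFD, and 4 of 7 rose in WT (2 of 7, Cd68 and Mpeg1, without library 4). In HuMgat2 they summed to 134.3 to 178.8 CPM on chow and 187.1 to 229.1 on HFD, with 0 of 7 called between diets by edgeR (2 higher at an unadjusted p below 0.05) and 2 of 7 called higher without library 4. The 5 Kupffer cell markers summed to 77.3 to 137 CPM in WT on chow. In WT libraries 1 to 4 on HFD they summed to 160, 126, 111 and 419.9 CPM. With HFD in WT 2 of 5 rose (1 of 5, Cd5l, without library 4). In HuMgat2 the Kupffer cell markers summed to 94.5 to 120.8 CPM on chow and 115.3 to 148.6 on HFD. There 0 of 5 were called between diets by edgeR, and Cd5l was called higher without library 4. The 8 markers of T and NK cells, the usual sources of interferon gamma, summed to 2.87 to 4.62 CPM in WT on chow. In WT libraries 1 to 4 on HFD they summed to 7.52, 8.93, 5.19 and 24.2 CPM. In HuMgat2 mice they summed to 3.37 to 4.62 CPM on chow and 2.56 to 2.82 on HFD. Of the 4 tested, Cd4 and Nkg7 rose in WT (only Cd4 without library 4), and Cd3e, Cd4 and Nkg7 were lower in HuMgat2 on HFD. Without library 4 all 3 were still called lower in HuMgat2 on HFD. Cd4 kept both of its calls in that fit (log2 1.65, adjusted p = 0.00686 in WT and log2 -2.09, adjusted p = 0.00153 between genotypes). With diet in WT, 3 of the 4 had a positive and 1 a negative value in that fit. Mean Cd3e was 0.93 CPM in WT HFD libraries 1 to 3 against 1.02 CPM in WT on chow. The 5 neutrophil markers were too low to be tested, at 0.162 to 0.668 CPM in WT HFD libraries 1 to 3 and 11.8 CPM in library 4.

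In WT with HFD, 1 of 2 tested plasmacytoid dendritic, 1 of 4 dendritic, 1 of 4 B and plasma cell, 1 of 6 endothelial, 0 of 5 stellate and 0 of 4 cholangiocyte markers rose. Without library 4, 0 plasmacytoid dendritic and 0 dendritic markers were called, and Jchain (plasma cell) and Lyve1 (endothelial) still were. The plasmacytoid gene called with library 4, Siglech, had 2 to 15 counts per library, and the other tested, Ccr9, had a negative value (log2 -0.19). Plasmacytoid dendritic markers, of cells known for type I interferon, summed to 1.59 to 3.02 CPM in WT on chow and 2.10 to 3.89 in WT on HFD. In HuMgat2 with HFD, 4 of 5 stellate markers rose, with sums of 174 to 287 CPM on chow and 342 to 407.5 on HFD, Lyve1 of the endothelial markers rose and Sox9 of the cholangiocyte markers fell. On HFD, 2 of 5 stellate markers (Lrat and Dcn) were higher in HuMgat2 than in WT. In that comparison 7 of 7 macrophage, 5 of 5 Kupffer cell and 4 of 4 tested dendritic markers had negative values. Of them Mpeg1, Marco and Zbtb46 were called lower in HuMgat2. Without library 4, 3 of 7, 3 of 5 and 4 of 4 were negative, and only Zbtb46 was called lower. The part of these cells in the changes of the interferon-stimulated genes was not tested.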

How the data were processed

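Liver RNA (15 mg of tissue, integrity number above 7, ribosomal RNA depleted, stranded kit) was sequenced, per the labels' protocols. The authors deposited raw read-pair counts per gene name, counted with featureCounts 2.0.1 on GRCm39 with Ensembl 103, per the file headers. The same table lists exon length in bases. The submitters' processing notes name STAR 2.7, DESeq2 1.26.0 and mm39. No strand option and none for pairs with several matches is recorded, so antisense partners and near copies are uncertain. The 64 records are 4 per library, and the 16 libraries were each used once.

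Counts were fitted in 1 model of the 4 groups with edgeR 4.0.16 (R 4.3.3, TMM, filterByExpr, two-sided quasi-likelihood test). The Benjamini-Hochberg adjustment ran over all 17318 tested genes, and over 17642 in the fit without library 4. The model was also run on simulated counts. These had 1 common spread and no outlying library, and only genes with higher counts were changed. The effect of library 4 and changes of genes with few counts were therefore not checked. Each count was repeated with DESeq2 1.42.0, with DESeq2's scaling inside edgeR, without the filter, with genes averaging 1 CPM or more, with the groups compared alone, with limma 3.58.1 voom and quality weights, and leaving out each library. All 38 genes are named. Values in every library are given for those called and for 10 fixed genes, and the others are given by range. Of the wider pathway list, called genes are counted and some given with values. A gene of that list is not reported here. The members, the type I and gamma division and the lists were chosen with earlier results of these data known.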

Additional observations from a re-analysis of the deposited data

Results flagged for a closer look

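Among 152 pairs of a gene and a group of 4 libraries, 19 had 1 library apart from the others by a gap test on the range. Chance gives such a gap in about 1 of 20 groups where values are normal and independent. The genes share the same libraries, so the pairs are not independent and their number cannot be set against that rate. Of the 19 pairs, 12 were WT HFD library 4, always as the highest. They were 8 type I genes, at 34.1 CPM for Zbp1, 7.39 for Oas1a, 4.85 for Oas3, 13.6 for Oasl2, 13.8 for Ifit2, 3.02 for Mx1, 7.94 for Xaf1 and 4.29 for Ifi27l2a, and 4 gamma-induced genes, at 62.4 CPM for Igtp, 36.9 for Ifi47, 63.2 for Gbp2 and 23.7 for Gbp3. In WT on chow, Isg15 was low in library 5 (1.13 CPM) and Usp18 in library 6 (3.33 CPM), and Oasl2 (4.94 CPM) and Bst2 (42 CPM) were high in library 8. HuMgat2 chow library 15 was high for Oas1a (2.09 CPM) and Mx2 (8.06 CPM), and HuMgat2 HFD library 12 was low for Rtp4 (7.22 CPM).

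The diet change differed between genotypes by the edgeR interaction test for Ifih1 (log2 -0.611), Cmpk2 (0.873) and Bst2 (-0.879).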

How the results depend on the processing

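Of 27 single-gene calls, 7 kept direction and call under every alternative run (Isg15 and Ifih1 with diet in WT, Bst2 with diet in HuMgat2, between genotypes on HFD and in the interaction, and Rsad2 and Cmpk2 between genotypes on HFD), and 0 reversed direction. With the groups compared alone, the counts were 2 higher with diet in WT, 6 higher with diet in HuMgat2, 0 higher between genotypes on chow and 1 lower between genotypes on HFD. Voom with quality weights gave 1 lower with diet in WT, 5 higher with diet in HuMgat2 and 1 lower between genotypes on HFD, where DESeq2 gave 4. No filter gave 0 higher and 1 lower in the interaction. With each library left out, the counts ran from 0 to 5 higher and 1 to 2 lower with diet in HuMgat2, 0 to 2 higher between genotypes on chow, 1 to 7 lower between genotypes on HFD, and 0 to 1 higher and 1 to 2 lower in the interaction. The extremes came without HuMgat2 HFD library 11 (0 higher with diet) and WT HFD library 3 (7 lower between genotypes). The cause was not tested. No paired analysis was possible because library numbers are not shared between groups. Genes under 1 CPM per library, such as Mx1, rest on few counts.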
